A study of Mus musculus with 33 samples.

Results

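The 10 genes described here are known for innate-like T cells, natural killer (NK) cells and cytotoxic T cells: Zbtb16, Tbx21, Eomes, Id2, Klrd1, Klrk1, Nkg7, Gzma, Gzmb and Xcl1. They were chosen by symbol, with earlier results of these data known. They have 15 of the 45037 probe sets of the arrays and are 10 of the 18193 genes that the annotation names by a single symbol. Their signals were followed across 33 arrays of mouse thymus RNA in 7 groups. Dissected tissue gave whole medulla (n = 7), whole cortex (n = 7), and perimedullary, subcapsular and central cortex (n = 3 each). Sorted cells gave medullary thymocytes (n = 5), gated as CD3hi and CD45+, and cortical thymocytes (n = 5), gated as CD3-/lo and CD45+ with CD90 or CD117. The mice of every group were C57BL6, labelled male and aged 4 to 6 weeks, with no treatment or allele named. The sorted cells were defined by their gate, which selects on maturity, and the gate cannot be told apart from the compartment. The extraction kit also differed between tissue and sorted cells and cannot be told apart from that contrast. Arrays are labelled as biological replicates with no animal named. Some may share animals, and p-values over dissected regions may then be too small.

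Most thymocytes mature in the cortex as double-positive cells, which carry both coreceptors CD4 and CD8, and then move to the medulla as CD3-high cells with a single coreceptor. A minority follows innate-like paths, among them natural killer T cells, which acquire effector genes before they leave the thymus. Zbtb16 encodes PLZF, the transcription factor that directs this innate-like path, and Tbx21 and Eomes encode the T-box factors of type 1 and cytotoxic lymphocytes. Id2 encodes an inhibitor of E proteins, the factors that hold thymocytes in their immature programme. Klrd1 (CD94) and Klrk1 (NKG2D) encode lectin-like NK receptors. Nkg7 encodes a membrane protein of cytotoxic granules, and Gzma and Gzmb encode the granule proteases granzyme A and granzyme B. Xcl1 encodes a chemokine, lymphotactin, that attracts dendritic cells through the receptor XCR1.

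Signals are MAS5 intensities on a linear scale, and fold changes are differences of mean log2 (signal + 26.2), given with the standard error (SE) of the fit. A gene was called higher or lower when its limma Benjamini-Hochberg adjusted p over 13463 genes was below 0.05 and its log2 fold change was at least 1 in size. Other probe sets of a gene were called by the same limits in a fit of 30045 probe sets, over which their p was adjusted. Means are given ± SD with the n above. Signals of different probe sets are not comparable, so levels are set side by side only within a gene. In these bulk samples more cells of a type and more RNA per cell cannot be told apart. All 10 genes passed the filter on low signals, but Zbtb16, Eomes and Xcl1 had no array above its array's median in 4 of the 7 groups, Klrk1 in 3, Gzmb in 2 and Tbx21 in 1. They passed through the groups in which they are high, so counts over the 10 genes are a description.

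Array medians lay between 71.9 and 163, and arrays of a group correlated at Pearson r between 0.916 and 0.984. A wide upper tail set apart 13 arrays, among them 5 of the 7 of whole medulla and 5 of the 7 of whole cortex. Marker genes followed the compartments. Ccr7, a receptor of mature thymocytes, had 6160 ± 874 in whole medulla against 214 ± 49.5 in whole cortex. Rag1, a recombinase of immature thymocytes, had 920 ± 531 in sorted medullary against 26700 ± 1490 in sorted cortical thymocytes. Cd3e lay between 3610 and 9060 in group means, but Cd3d and Cd8b1 set the 3 subregions apart. Group means of Cd3d were 3540 to 3900 in the subregions against 16900 to 26100 elsewhere, and those of Cd8b1 1980 to 2490 against 4040 to 30000. Levels of the subregions beside the other groups are therefore a description. Aire, of medullary epithelium, was at 40.7 ± 36.5 and 9.86 ± 1.65 in sorted medullary and sorted cortical thymocytes, and Psmb11, of cortical epithelium, at 17.7 ± 19.2 and 13.9 ± 13.8. The labelled sex was not borne out on all arrays. Xist, transcribed from the inactive X chromosome of females, was at 9830 to 15200 on the 9 arrays of the cortical subregions, against 1.19 to 51.4 on the other 24. The Y-linked gene Eif2s3y was at 1.47 to 24 in central cortex, 634 to 962 in perimedullary and 482 to 1150 in subcapsular cortex, against 1730 to 3390 elsewhere. The subregions therefore differed from the other groups, and central cortex from the other subregions, in more than position, and the part of this in the results was not tested.

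**Figure D1:**
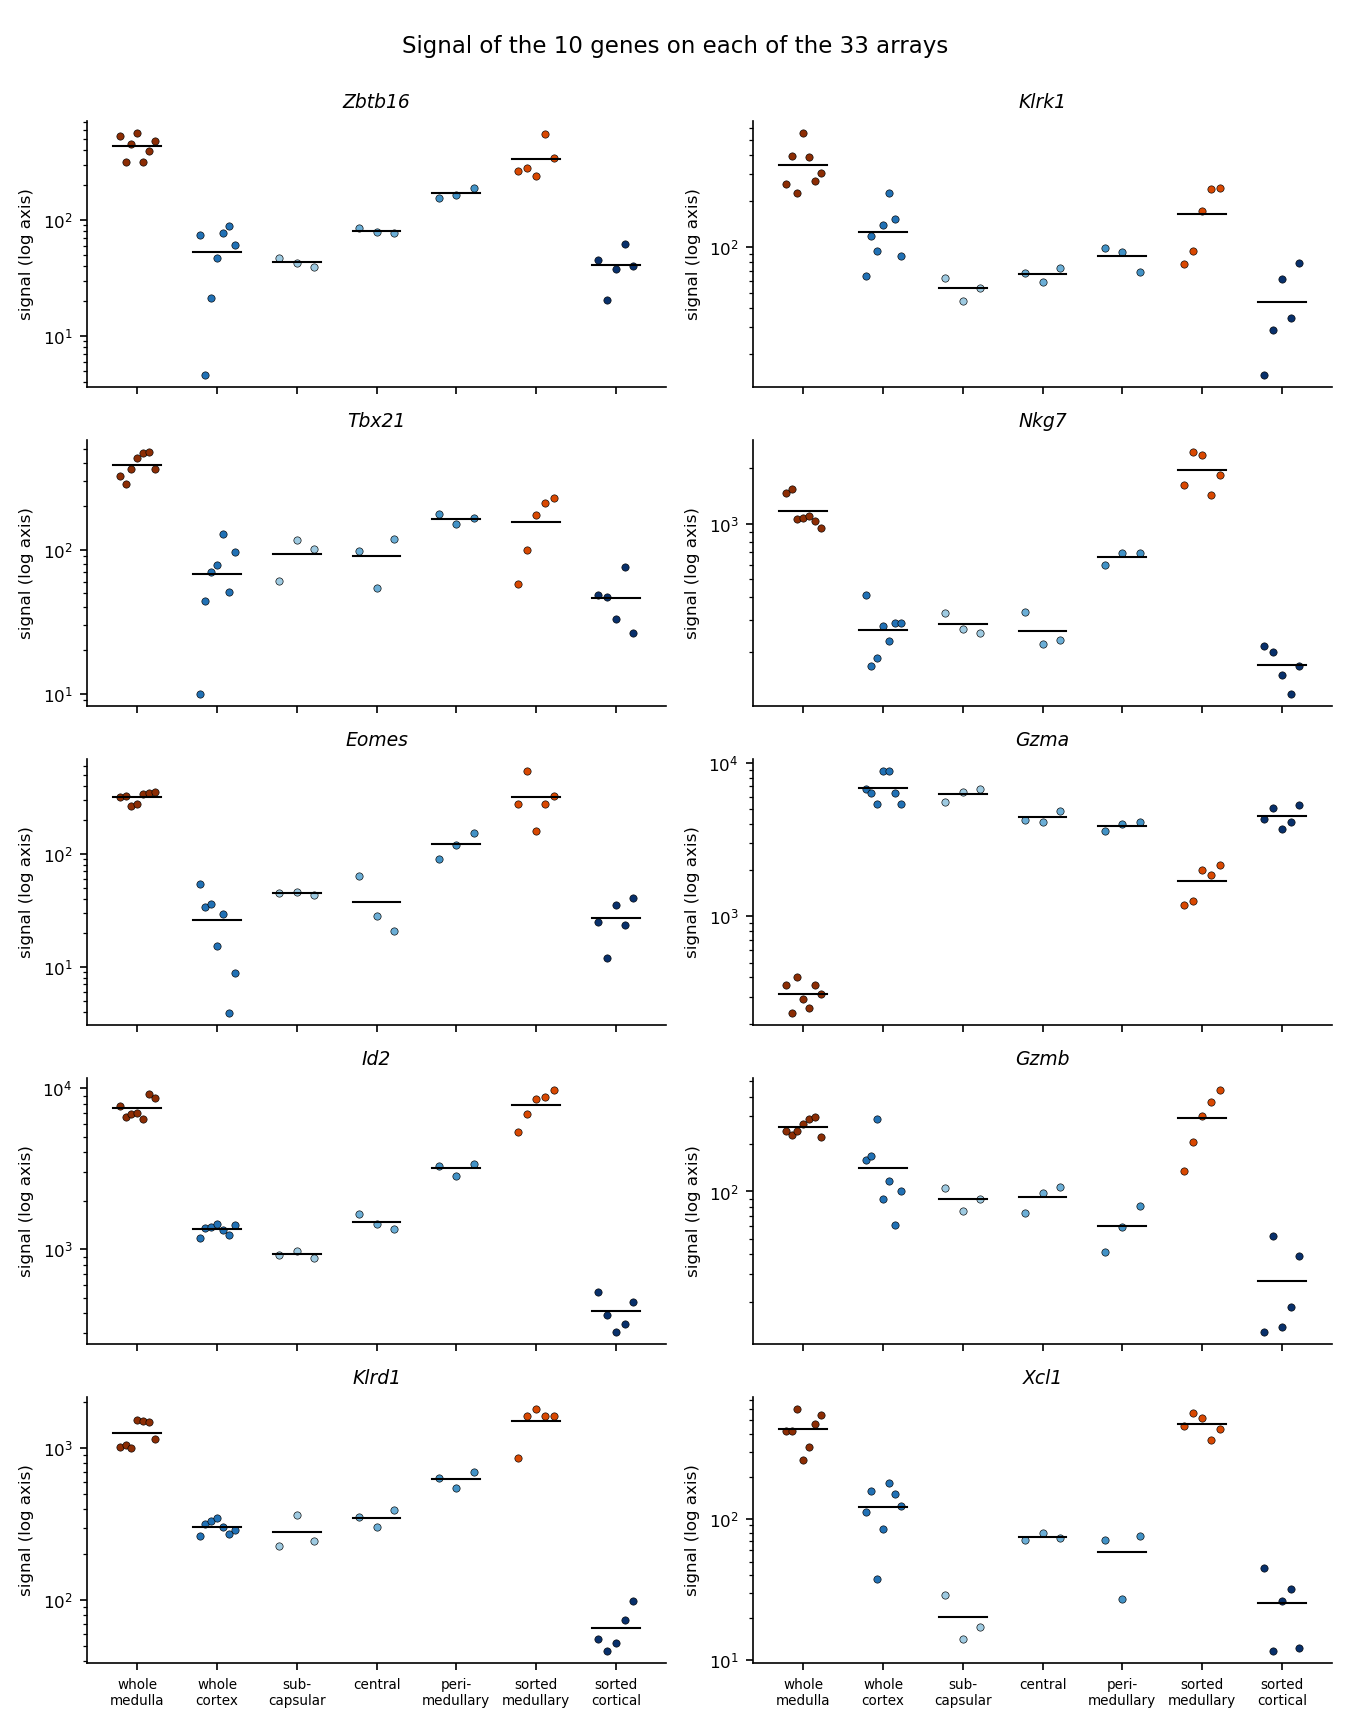
Signal of each of the 10 genes (log axis, MAS5 intensity) on every array, with the mean of each group as a line. Gzma alone sits lowest in whole medulla, at 235 to 400, and at 5350 to 8850 in whole cortex, while the other 9 genes have their lowest group mean in cortical tissue or sorted cortical thymocytes.

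In sorted cells, 9 of the 10 genes were called higher in medullary thymocytes and Gzma was called lower. Of all genes tested, 14.0% were called in this comparison, 7.69% higher and 6.31% lower. Arrays of the groups did not overlap for 7 of the genes that were higher or for Gzma, and they overlapped for Tbx21 and Klrk1 (over all genes, 16.7% were higher and 16.3% lower without overlap). The median log2 fold change of the 10 genes was 2.57, beside 0.07 over all genes tested. Of the sorted medullary arrays 3 had a wide upper tail and none of the sorted cortical arrays did. Without the wide-tailed arrays the count was again 9 higher and 1 lower, with Gzma at -1.15. That fit kept few medullary arrays, and its share of all genes called is not given here, so the count is a description.

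Among the transcription factors, Id2 had 5380, 6940, 8530, 8780 and 9750 on the 5 medullary thymocyte arrays, against 543, 390, 306, 344 and 473 on the cortical ones. Every medullary array was far above every cortical one (log2 fold change 4.17, SE 0.13, adjusted p = 3.6e-24). Both other Id2 probe sets were called higher too, by 4.57 (SE 0.26) and 1.84 (SE 0.26). Zbtb16 had 268, 283, 241, 556 and 343 in medullary thymocytes, against 45.6, 20.5, 37.6, 62.7 and 40.5 in cortical thymocytes. The cortical values all lay below the median of their array, and the groups were apart (2.40, SE 0.27, adjusted p = 1.8e-09). Of its other probe sets, 1 was called higher (1.75, SE 0.29) and 1 was not called (0.54, SE 0.46, adjusted p = 0.39). Eomes had 278, 544, 160, 275 and 327 in medullary thymocytes, against 24.7, 12.0, 35.4, 23.5 and 40.5 in cortical thymocytes. It too was below the array median on every cortical array (2.62, SE 0.26, adjusted p = 1.1e-10), and its second probe set was called at 2.93 (SE 0.32). Tbx21 had 57.8, 99.7, 175, 212 and 230 in medullary thymocytes, against 48.4, 46.6, 33.1, 75.6 and 26.6 in cortical thymocytes. The lowest medullary array lay within the cortical range, and the difference was called (1.24, SE 0.30, adjusted p = 0.00082) but not after quantile normalization, at 0.97.

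Of the receptors, Klrd1 had 864, 1620, 1800, 1620 and 1620 in medullary thymocytes, against 55.6, 46.2, 52.3, 74.0 and 98.2 in cortical thymocytes. A single medullary array lay well below the other 4 and still far above the cortical ones (4.05, SE 0.17, adjusted p = 1.5e-20). Klrk1 had 77.1, 93.9, 171, 238 and 241 in medullary thymocytes, against 14.6, 28.5, 61.4, 34.1 and 78.2 in cortical thymocytes. The groups met at their edges, and the difference was called (1.43, SE 0.28, adjusted p = 7.7e-05).

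Of the granule genes, Nkg7 had 1620, 2460, 2360, 1440 and 1850 in medullary thymocytes, against 217, 201, 150, 119 and 169 in cortical thymocytes (3.31, SE 0.18, adjusted p = 2.6e-17). Gzmb had 135, 207, 301, 372 and 441 in medullary thymocytes, against 12.8, 51.8, 13.7, 18.6 and 39.0 in cortical thymocytes (2.53, SE 0.27, adjusted p = 8.7e-10). Both genes were higher on every medullary array. Gzma went the other way, with 1190, 1250, 2010, 1860 and 2150 in medullary thymocytes, against 4310, 5100, 3730, 4100 and 5310 in cortical thymocytes. No medullary array reached the lowest cortical one, and the difference was -1.43 (SE 0.16, adjusted p = 1.2e-09). Unlike 6 of the other genes, which were below the array median on every sorted cortical array, Gzma was above it on all 33 arrays. Xcl1, the chemokine, had 458, 567, 523, 361 and 433 in medullary thymocytes, against 44.7, 11.6, 26.2, 32 and 12.3 in cortical thymocytes (3.29, SE 0.26, adjusted p = 3.4e-13).

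The 250 bases before the start of Gzma, Gzmb and Nkg7 are shown because these granule genes differ in direction between the compartments. They are RefSeq sequences of build GRCm38.p6, read 5′ to 3′ on the strand of the gene. The windows lie at chr13:113100982-113101231 (minus strand), chr14:56262335-56262584 (minus strand) and chr7:43436888-43437137 (plus strand), each directly upstream of the annotated gene. Capitals mark matches on either strand to the E-box CANNTG, which E proteins bind, to AGGTGT, the core of a T-box site, and to TGTGGT, a Runx motif.
Gzma: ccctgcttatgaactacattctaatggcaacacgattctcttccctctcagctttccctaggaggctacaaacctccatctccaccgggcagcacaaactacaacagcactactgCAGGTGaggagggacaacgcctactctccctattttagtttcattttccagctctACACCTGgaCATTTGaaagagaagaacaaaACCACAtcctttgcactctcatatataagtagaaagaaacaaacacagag
Gzmb: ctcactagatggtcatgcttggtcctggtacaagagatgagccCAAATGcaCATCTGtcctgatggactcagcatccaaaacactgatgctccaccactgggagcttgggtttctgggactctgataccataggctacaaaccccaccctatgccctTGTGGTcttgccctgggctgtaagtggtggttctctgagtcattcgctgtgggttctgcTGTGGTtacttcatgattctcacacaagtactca
Nkg7: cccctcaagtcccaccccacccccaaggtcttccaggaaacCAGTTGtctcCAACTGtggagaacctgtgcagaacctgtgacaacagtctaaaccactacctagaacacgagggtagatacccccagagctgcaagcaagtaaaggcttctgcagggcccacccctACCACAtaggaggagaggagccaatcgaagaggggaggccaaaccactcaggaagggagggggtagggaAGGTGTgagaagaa
The Gzma window holds 3 E-box matches, of which 1 overlaps its T-box match, and those of Gzmb and Nkg7 hold 2 each. The T-box match is also in the Nkg7 window. A window was found for 8 of the 10 genes, and 6 of these 8 hold an E-box, as do 66.2% of all 32851 windows of this length. The T-box motif AGGTGT is in 2 of the 8 and in 11.8% of all windows, and the Runx motif is in 5 of the 8, the 3 shown and those of Klrk1 and Xcl1, and in 14.0% of all. A match is a description of the letters only.

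In dissected tissue the direction was the same, with 8 genes called higher in whole medulla, Gzma called lower and Gzmb not called. Here 24.0% of all genes were called, 18.7% higher and 5.39% lower, so a rise in whole medulla is common among the genes tested. No overlap between arrays was seen for 8 higher genes and for Gzma (19.1% and 10.8% over all genes). The median of all genes was 0.11 in this comparison and -0.02 after quantile normalization, and the median of the 10 genes was 2.01. Within the wide-tailed arrays 8 genes were called higher and 1 lower, and within the other arrays 9 and 1. In each group 5 of the 7 arrays are wide-tailed, so the other arrays are few. The shares of all genes called in these subsets are not given here, so the counts are a description.

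Gzma was above the array median on every array of both groups. Its lowest, median and highest signals were 235, 312 and 400 in whole medulla, against 5350, 6380 and 8850 in whole cortex. The mean was 21.7 times higher in whole cortex (log2 fold change -4.32, SE 0.13, adjusted p = 7.1e-25), with -4.44 for Gzma within the wide-tailed arrays and -4.02 within the others. Gzmb had 223, 241 and 296 in whole medulla, against 61.3, 116 and 288 in whole cortex. The cortical values were spread widely and reached into the medullary range, and the difference of 0.86 (SE 0.23, adjusted p = 0.0015) fell short of the size required. Without whole cortex replicate 3, the array at 288, it was 1.03 and was called, and within the arrays without a wide tail it was 1.42. Nkg7 had 951, 1070 and 1550 in whole medulla, against 168, 279 and 409 in whole cortex (2.07, SE 0.16, adjusted p = 5.4e-14).

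The transcription factor genes were all higher in whole medulla. Eomes had 263, 327 and 354 in whole medulla, against 3.89, 29.5 and 54.2 in whole cortex (2.79, SE 0.22, adjusted p = 1.6e-13). Zbtb16 had 317, 450 and 570 in whole medulla, against 4.63, 61.3 and 88.8 in whole cortex (2.64, SE 0.23, adjusted p = 1.7e-12). For both genes every cortical array was below its array median and every medullary array above it, so the cortical level is near background and the size of the difference depends on the offset. The second Eomes probe set was called at 1.59 (SE 0.27), and the others of Zbtb16 at 1.58 (SE 0.25) and 1.09 (SE 0.39). Id2 had 6440, 7020 and 9240 in whole medulla, against 1180, 1350 and 1430 in whole cortex (2.48, SE 0.11, adjusted p = 5.6e-20), and its other probe sets were called at 2.19 (SE 0.22) and 1.74 (SE 0.22). Tbx21 had 287, 364 and 478 in whole medulla, against 10, 69.9 and 128 in whole cortex, with no overlap (2.23, SE 0.25, adjusted p = 1.2e-09).

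Of the receptors, Klrd1 had 1000, 1140 and 1530 in whole medulla, against 262, 302 and 347 in whole cortex (1.94, SE 0.15, adjusted p = 6.7e-14). Klrk1 had 225, 303 and 557 in whole medulla, against 64.1, 117 and 223 in whole cortex (1.30, SE 0.24, adjusted p = 1.3e-05). Its groups were separated by a gap smaller than the spread within either. Xcl1 had 263, 422 and 600 in whole medulla, against 37.4, 124 and 180 in whole cortex (1.69, SE 0.22, adjusted p = 2.5e-08).

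**Figure D2:**
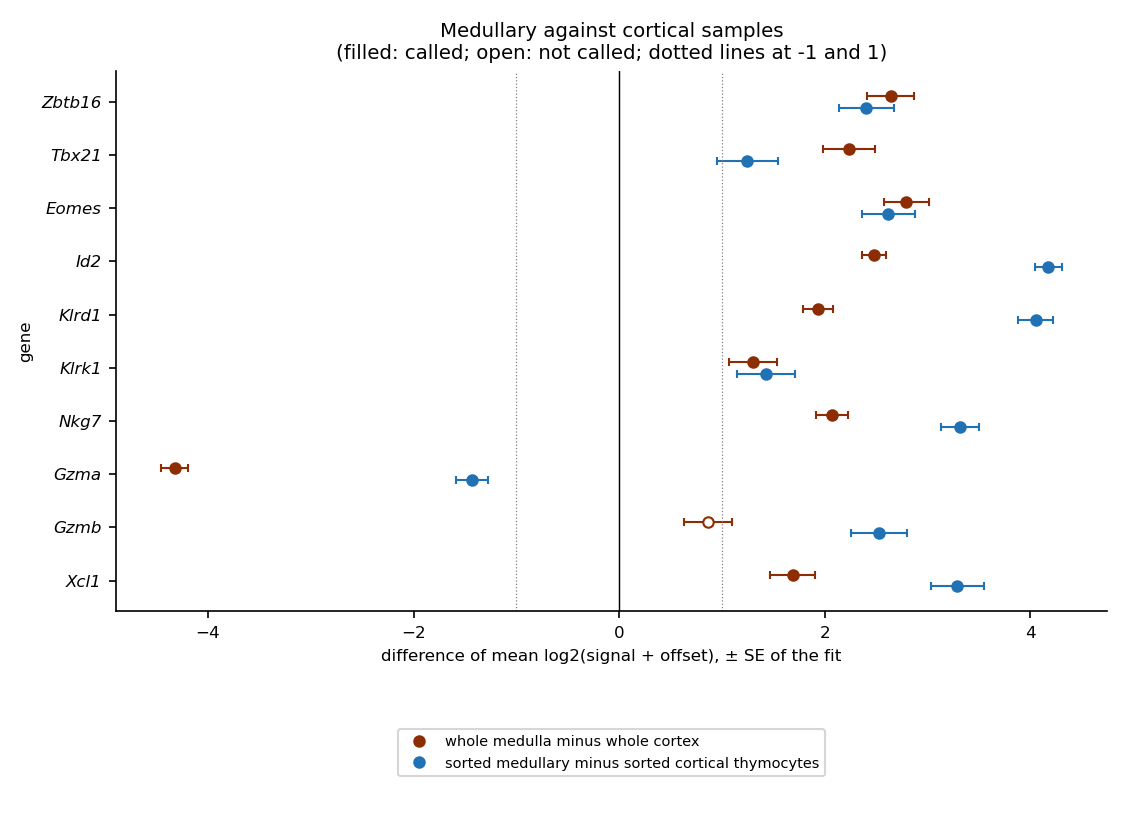
Difference of mean log2 (signal + 26.2) for each gene with the SE of the fit, whole medulla minus whole cortex (brown) and sorted medullary minus sorted cortical thymocytes (blue); filled points were called. The estimates of Zbtb16, Eomes and Klrk1 lie close together, those of Id2, Klrd1, Nkg7, Gzmb and Xcl1 are larger in sorted cells, and Gzma lies at -4.32 in tissue and -1.43 in sorted cells.

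Whether the compartment difference depended on the kind of sample was tested as an interaction term, the tissue difference minus the sorted-cell difference. It was called lower for 6 genes and higher for none (all genes 15.0%, of which 12.8% higher and 2.22% lower). Klrd1 had -2.11 (SE 0.23, adjusted p = 2.6e-09), Id2 -1.70 (SE 0.17, adjusted p = 1.1e-09), Gzmb -1.67 (SE 0.36, adjusted p = 0.00037), Xcl1 -1.60 (SE 0.34, adjusted p = 0.00032) and Nkg7 -1.24 (SE 0.24, adjusted p = 0.00011). These 5 were thus less different between compartments in tissue than in sorted cells. Gzma had -2.89 (SE 0.20, adjusted p = 1.2e-13) and was more different in tissue. The term was not called for Zbtb16 at 0.24 (SE 0.35), Eomes at 0.18 (SE 0.34), Klrk1 at -0.12 (SE 0.37) or Tbx21 at 0.99 (SE 0.39, adjusted p = 0.05), though Tbx21 was called higher at 1.02 to 1.14 in 10 of the 24 fits that left out 1 array. These were sorted cortical replicates 3 and 5, sorted medullary replicates 3, 4 and 5, whole cortex replicates 4, 5 and 7 and whole medulla replicates 1 and 2. For Id2 and Eomes it depended on the probe set. The other Id2 probe sets gave -2.38 (SE 0.34) and -0.10 (SE 0.35), and the second Eomes probe set was called at -1.33 (SE 0.42, adjusted p = 0.019). The others of Zbtb16 were not called, at -0.17 (SE 0.38) and 0.54 (SE 0.60).

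The groups behind these terms can be compared directly. In whole cortex against sorted cortical thymocytes, 5 of the 10 genes were called higher and none lower (all genes 11.2%, of which 9.64% higher and 1.52% lower). Without overlap, 4 of the 10 genes were higher and 0 lower, beside 12.7% and 7.41% of all genes. Klrd1 had a mean of 302 ± 30.9 in whole cortex against 65.3 ± 21.2 in cortical thymocytes (1.87, SE 0.16, adjusted p = 6.3e-12). Id2 had 1330 ± 94.3 in whole cortex against 411 ± 96.3 in cortical thymocytes (1.65, SE 0.12, adjusted p = 1.7e-13). Gzmb had 140 ± 75.1 in whole cortex against 27.2 ± 17.4 in cortical thymocytes (1.59, SE 0.25). Xcl1 had 121 ± 48.7 in whole cortex against 25.3 ± 13.9 in cortical thymocytes (1.47, SE 0.24), and Klrk1 125 ± 52.9 in whole cortex against 43.4 ± 25.9 in cortical thymocytes (1.13, SE 0.26). Arrays overlapped for Xcl1 and Klrk1, and the call of Klrk1 was lost without sorted cortical replicate 1 (0.96) or whole cortex replicate 5 (0.998) and after quantile normalization (0.87). Of the other Id2 probe sets 1 was called higher, at 2.29 (SE 0.24), and 1 was not called, at 0.62. Those of Zbtb16 (0.58 and -0.04) and Eomes (0.64) were not called. Gzma was at 6830 ± 1450 in whole cortex and 4510 ± 672 in cortical thymocytes, which did not reach the size required (0.58, SE 0.14).

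In whole medulla against sorted medullary thymocytes, 2 genes were called higher and Gzma lower (all genes 20.7%, of which 19.5% higher and 1.23% lower). Without overlap, 1 of the 10 genes was higher and 1 lower, beside 21.3% and 7.75% of all genes. Gzma had 315 ± 60.4 in whole medulla against 1690 ± 442 in medullary thymocytes, with no overlap (-2.31, SE 0.14, adjusted p = 4e-16). Tbx21 had 387 ± 72.3 in whole medulla against 155 ± 73.8 in medullary thymocytes (1.29, SE 0.27, adjusted p = 0.00016). Klrk1 had 342 ± 114 in whole medulla against 164 ± 77.3 in medullary thymocytes, and its arrays overlapped (1.01, SE 0.26, adjusted p = 0.0014). Within the arrays without a wide tail neither was called, at 0.84 (SE 0.325) for Tbx21 and 0.24 (SE 0.336) for Klrk1. Few arrays were left there, as 5 of the 7 whole medulla and 3 of the 5 sorted medullary arrays have that tail. Klrk1 was also below the required size without sorted medullary replicate 1 (0.81) or 2 (0.87) and without whole medulla replicate 2 (0.97), 4 (0.89) or 5 (0.97), and after quantile normalization (0.77). Nkg7, at 1170 ± 231 in whole medulla and 1940 ± 449 in medullary thymocytes, was not called (-0.70, SE 0.17). The means of Id2, Eomes, Xcl1 and Gzmb had ratios between 0.878 and 1 for whole medulla over medullary thymocytes. The other probe sets of Id2 (-0.09 and 0.52), Zbtb16 (0.41 and 0.51) and Eomes (-0.70) were not called.

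Markers of other cells moved with these comparisons, and their part in the results was not tested. Each summed signal, here and below, adds different probe sets, so sums are compared between groups only. Brighter probe sets weigh more in a sum, and the gene that weighs most need not have the most RNA. The summed signal of 6 double-positive thymocyte genes was 6780 to 8610 in whole medulla and 11100 to 16400 in sorted medullary thymocytes, against 86700 to 162000 in whole cortex and 82500 to 88600 in sorted cortical thymocytes. That of 5 mature thymocyte genes was 7810 to 11500 in whole cortex against 2170 to 2570 in sorted cortical thymocytes. Most of it was H2-K1, an MHC class I gene also found outside thymocytes, at 7470 ± 1130 in whole cortex against 1680 ± 139 in sorted cortical thymocytes. H2-K1 and Gimap4 were called, and Ccr7 (0.77), S1pr1 (0.79) and Klf2 (0.92) were below the size required. Of 6 NK cell genes 3 were tested, Eomes among them, and summed to 3830 to 5030 in whole medulla and 1500 to 2890 in whole cortex, and to 404 to 625 in sorted medullary and 114 to 181 in sorted cortical thymocytes. The tissue sums were mostly Tyrobp and Fcer1g, which myeloid cells share, with Fcer1g at 1050 ± 201 in whole medulla against 588 ± 156 in whole cortex. In sorted medullary thymocytes the Eomes probe set, at 317 ± 141, weighed most in the sum. Ncr1, which encodes the receptor NKp46 and defines mouse NK cells, was below the array median on all 33 arrays, with group means between 11.4 and 39.3. Tyrobp, which encodes the adaptor DAP12 of NK and myeloid cells, was at 57.4 ± 24.7 in sorted medullary and 57.4 ± 6.51 in sorted cortical thymocytes, below the array median on every sorted array. In tissue it had 3110 ± 474 in whole medulla against 1490 ± 387 in whole cortex (1.07, SE 0.18, adjusted p = 5e-06). The 6 macrophage genes summed to 24200 to 32700 in whole medulla and 6320 to 8900 in whole cortex, and to at most 449 on any sorted array. The tissue difference came from 3 of the 6, with Lyz2 at 16800 ± 2060 in whole medulla against 2790 ± 512 in whole cortex and Csf1r and C1qa higher by 1.39 and 1.37. Adgre1 (-0.26), Mertk (-0.02) and Fcgr1 (0.12) were not called, and the median of the 6 was 0.75. Of 6 gamma-delta T cell genes 2 were tested. They summed to 806 to 1120 in whole medulla against 2350 to 4160 in whole cortex, where 1 was called lower in whole medulla. In sorted cells they summed to 1550 to 2430 in medullary against 1810 to 2710 in cortical thymocytes, where 1 was called higher in medullary thymocytes. Klrb1c was not analysed here.

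Within the cortex, 5 genes were called higher in the perimedullary part than in the subcapsular part, namely Id2, Zbtb16, Nkg7, Klrd1 and Eomes (4.61% of all genes called, 2.94% higher and 1.66% lower). Against central cortex Nkg7, Eomes and Id2 were called higher (1.38% called, 1.34% higher and 0.0371% lower). Each group had 3 arrays. Perimedullary arrays lay above all subcapsular arrays for 7 genes and below them for Gzma (21.9% of all genes higher and 24.3% lower without overlap), a rate of separation that is high for all genes at this number of arrays.

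Id2 had 3310, 2860 and 3380 in perimedullary cortex, against 924, 982 and 880 in subcapsular and 1650, 1430 and 1340 in central cortex. It was higher by 1.75 against subcapsular cortex (SE 0.17, adjusted p = 2.4e-09) and by 1.10 against central cortex (SE 0.17, adjusted p = 6.2e-05). Of its other probe sets, 1 was called in both (2.5, SE 0.33, and 1.5, SE 0.33) and 1 in neither (0.89 and 0.68). Nkg7 had 593, 697 and 691 in perimedullary cortex, against 328, 269 and 255 in subcapsular and 331, 223 and 234 in central cortex (1.15, SE 0.24, adjusted p = 0.00058, and 1.26, SE 0.24, adjusted p = 0.00096). Both genes kept these calls whichever array was left out.

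Klrd1 had 631, 548 and 700 in perimedullary cortex, against 228, 363 and 244 in subcapsular and 352, 303 and 391 in central cortex. It was called against subcapsular cortex (1.12, SE 0.22, adjusted p = 4e-04), while the difference from central cortex was 0.80 (SE 0.22, adjusted p = 0.045), below the size required. Zbtb16 had 156, 166 and 188 in perimedullary cortex, against 47.4, 42.9 and 39.4 in subcapsular and 85.6, 78.9 and 78.1 in central cortex. The 3 parts did not overlap, with the highest signals next to the medulla (1.5, SE 0.34, adjusted p = 0.0019 against subcapsular, and 0.87, SE 0.34, adjusted p = 0.28 against central cortex). Of its other probe sets 1 was called against subcapsular cortex (1.61, SE 0.37) and 1 was not (0.77, SE 0.59), and neither was called against central cortex (1.01 and 0.44).

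Eomes had 90.6, 121 and 154 in perimedullary cortex, against 45.1, 46.0 and 43.1 in subcapsular and 63.9, 27.9 and 20.9 in central cortex (1.04, SE 0.33, adjusted p = 0.028, and 1.25, SE 0.33, adjusted p = 0.03). The second Eomes probe set gave 0.57 and 0.48 and was not called. For the probe set used for Eomes, the call against subcapsular cortex was lost in 5 of the 6 fits that left out 1 array (all but perimedullary replicate 1, adjusted p up to 0.12) and that against central cortex in 4 of 6, with central replicate 2 or 3 or perimedullary replicate 2 or 3 left out (adjusted p up to 0.22). After quantile normalization 2 of the 5 genes, Id2 and Zbtb16, were called against subcapsular cortex, with Klrd1 at 0.94, Nkg7 at 0.97 and Eomes at 0.84.

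Gzma had 5580, 6480 and 6760 in subcapsular, 4250, 4140 and 4820 in central, and 3580, 4000 and 4110 in perimedullary cortex. Its signal thus ran down toward the medulla, but the steps were smaller than the size required (perimedullary minus subcapsular -0.68, SE 0.20, adjusted p = 0.017). Even the lowest perimedullary array, at 3580, was far above the highest of whole medulla, at 400. Xcl1 had 29.0, 14.1 and 17.3 in subcapsular, against 71.3, 79.5 and 73.0 in central cortex, all below their array medians, and was called lower in subcapsular cortex (-1.13, SE 0.33, adjusted p = 0.03), as were 0.446% of all genes (1.32% called in all, 0.876% higher). Of the 10 genes 1 was higher and 3 lower without overlap in subcapsular cortex, beside 21.1% and 17.9% of all genes. The Xcl1 call was lost in 5 of the 6 fits that left out 1 array, all but subcapsular replicate 1 (adjusted p up to 0.12). Without perimedullary replicate 2, Xcl1 was also called higher in perimedullary than in subcapsular cortex, at 1.12 (adjusted p = 0.036), against 0.82 (adjusted p = 0.093) with all arrays. No other probe set of Zbtb16, Eomes or Id2 was called between subcapsular and central cortex (-0.999 to -0.083). Tbx21, Klrk1 and Gzmb were not called between any parts of the cortex, and Gzmb had its lowest mean of the tissue groups in perimedullary cortex, at 60.4 ± 19.6.

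**Figure D3:**
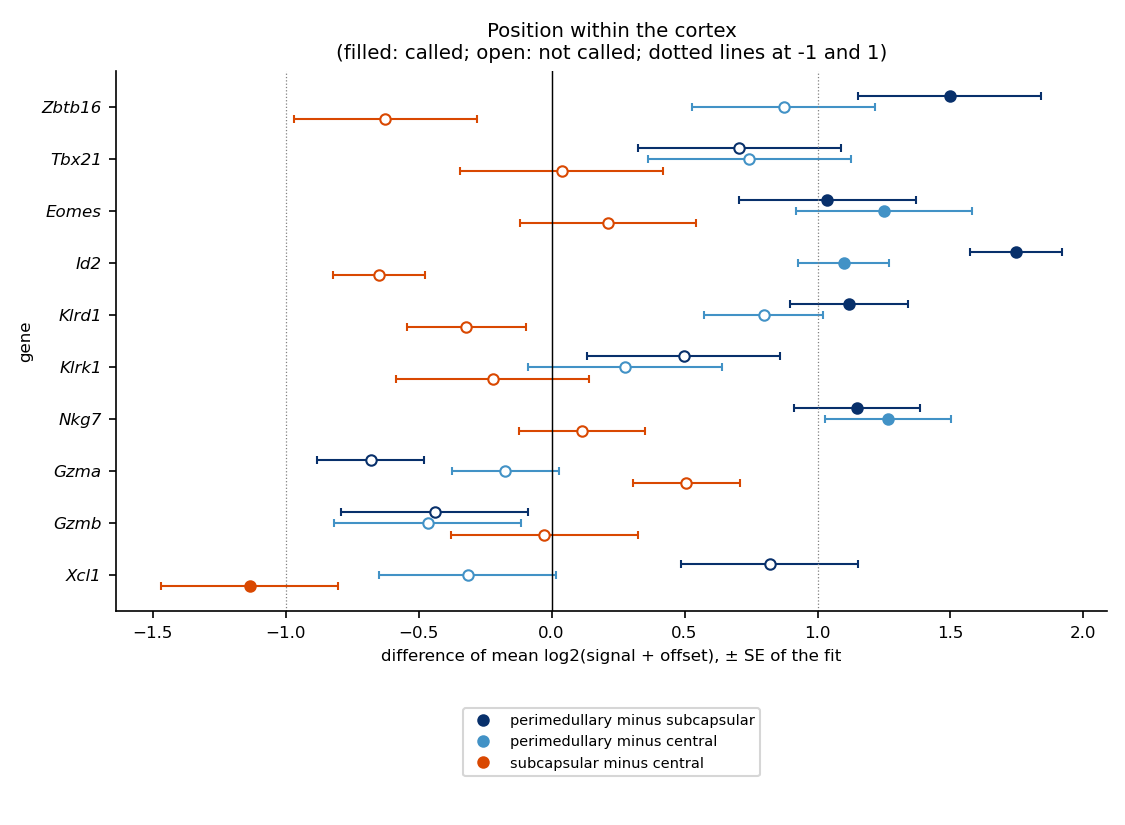
Differences of mean log2 (signal + 26.2) between parts of the cortex for each gene with the SE of the fit (n = 3 arrays each); filled points were called. Id2 lies at 1.75 and Zbtb16 at 1.5 for perimedullary minus subcapsular cortex, and Gzma at -0.68.

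Markers of mature thymocytes and of dendritic cells were also highest in perimedullary cortex, the part where Id2, Zbtb16, Nkg7, Klrd1 and Eomes were highest. The summed signal of the 5 mature thymocyte genes was 17800 to 19300 in perimedullary, 5410 to 6490 in subcapsular and 6800 to 7340 in central cortex, and that of 7 dendritic cell genes 2800 to 3270, 578 to 737 and 1140 to 1570 in the same order. Of these, 4 of 5 mature thymocyte genes and 4 of 7 dendritic cell genes were called higher against subcapsular cortex, and 4 and 3 against central cortex. The sums of macrophage genes (12400 to 13900, 4910 to 5930 and 5420 to 6620 in that order) were highest there too. So were those of B cell, NK cell and medullary epithelium genes. Those of gamma-delta T cell, neutrophil and mast cell, cortical epithelium, and mesenchyme and endothelium genes were not. Aire was at 122 ± 21.7 in perimedullary cortex, 42.3 ± 6.13 in subcapsular and 42.1 ± 22.8 in central cortex. The double-positive sum was 38000 to 39100, 38600 to 41000 and 41900 to 46100 in that order. The part of these markers, and of the sex-linked differences between the subregions, in the results was not tested.

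The order of the 7 group means, by the probe set used for each gene, was alike for most of the genes. Whole medulla and sorted medullary thymocytes held the highest 2 ranks for 8 of the 10, all but Tbx21 and Gzma, and their arrays overlapped in each of the 8. Perimedullary cortex came next for Zbtb16, Eomes, Id2, Klrd1 and Nkg7 and stood apart in its arrays from the groups on both sides. Other probe sets differed. Perimedullary arrays of a second Id2 probe set, at 159 to 260, lay below every whole cortex array, at 338 to 713. Those of the second Eomes probe set, at 17.8 to 31.7, lay within the whole cortex range of 4.23 to 68.5, and the third Id2 probe set also overlapped whole cortex. A second Zbtb16 probe set had its highest group mean in perimedullary cortex, at 137 to 181. It overlapped whole medulla, at 118 to 185, and sorted medullary thymocytes, at 42.9 to 231. The third Zbtb16 probe set, at 10.5 to 79.6 in perimedullary cortex, overlapped both medullary groups and whole cortex, at 14.6 to 117. For Tbx21 perimedullary cortex lay between whole medulla and sorted medullary thymocytes, at 164 ± 13.9, and overlapped the sorted cells. Sorted cortical thymocytes were lowest for 7 genes, Eomes, Gzma and Xcl1 being the exceptions. For Eomes they were at 27.2 ± 11.1 beside 25.9 ± 17.7 in whole cortex, and for Xcl1 at 25.3 ± 13.9 beside 20.1 ± 7.85 in subcapsular cortex. Gzma ran from 6830 ± 1450 in whole cortex and 6280 ± 614 in subcapsular cortex, which overlapped, through 4510 ± 672 in sorted cortical thymocytes, 4400 ± 367 in central and 3900 ± 281 in perimedullary cortex. Sorted medullary thymocytes and whole medulla closed that order, each apart from its neighbours.

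Over the 7 group means on the log2 scale, Gzma correlated negatively with each of the other 9 genes, at Pearson r between -0.876 and -0.663, and the 36 pairs among the other genes lay between 0.654 and 0.986. The groups share preparation and arrays, and these values describe 7 points only. Searching all genes tested for the most similar course gave Irf4, a transcription factor of activated lymphocytes, for Zbtb16 (r = 0.9975), with 690 ± 149 in whole medulla against 52.2 ± 39.6 in whole cortex. St8sia6, a sialyltransferase, was most like Id2 (r = 0.9986), and Adam19, a metalloprotease, most like Klrd1 (r = 0.9886). Gpr65, a proton-sensing receptor, was most like Nkg7 (r = 0.9936), with 2920 ± 509 in sorted medullary against 452 ± 37.8 in sorted cortical thymocytes. Gzma was most like Trat1, an adaptor associated with the T cell receptor (r = 0.9874), which had 1510 ± 548 in whole medulla against 5330 ± 873 in whole cortex, and next Osgepl1 (r = 0.9805). The first genes for the others were Irf7 for Eomes (r = 0.9924), B4galt1 for Xcl1 (r = 0.9917), Caml for Gzmb (r = 0.9891), Shroom4 for Tbx21 (r = 0.989) and Insl6 for Klrk1 (r = 0.9889). Pearson r does not measure the size of a change. Caml had 1160 ± 70.5 in sorted medullary against 925 ± 79.7 in sorted cortical thymocytes, where Gzmb had 291 ± 123 against 27.2 ± 17.4.

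Other genes of the same pathways were followed as lists. Of 14 tested cytotoxic effector genes, 5 were called higher in sorted medullary thymocytes and none lower (median 0.69, beside 0.07 over all genes, of which 7.69% were higher). Ctsw, a cathepsin of cytotoxic lymphocytes, had 7210 ± 803 in medullary against 167 ± 26.5 in cortical thymocytes (5.23, SE 0.12, adjusted p = 1.1e-28). Prf1, the pore-forming perforin, had 387 ± 60.1 in medullary against 161 ± 35.3 in cortical thymocytes (1.15, SE 0.17). Serpinb9, an inhibitor of granzyme B, had 448 ± 46 in medullary against 180 ± 28.6 in cortical thymocytes (1.21, SE 0.13). In tissue 5 of the 14 were called higher and none lower in whole medulla (median 0.75, beside 0.11 over all genes, of which 18.7% were higher). Ctsw had 3960 ± 366 in whole medulla against 300 ± 54.4 in whole cortex (3.62, SE 0.10). Serpinb9 had 4100 ± 305 in whole medulla against 303 ± 67.1 in whole cortex (3.67, SE 0.11), and Serpinb6b, another serine protease inhibitor, 4360 ± 567 in whole medulla against 597 ± 64.8 in whole cortex (2.81, SE 0.08). Both inhibitors had far lower signals in sorted medullary thymocytes, at 448 ± 46 and 515 ± 46.3. Ctsw also had 2270 ± 145 in perimedullary cortex, against 408 ± 27.5 in subcapsular (2.41, SE 0.15, adjusted p = 1.8e-14) and 702 ± 70.7 in central cortex. Prf1 was lower in subcapsular cortex, at 67.1 ± 5.22, than in central cortex, at 179 ± 29.5 (-1.13, SE 0.21, adjusted p = 0.00078). Ifng and Gzmc did not pass the filter.

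Of 10 tested NK receptor and adaptor genes, 4 were called higher in sorted medullary thymocytes and none lower (median 0.72), beside 7.69% of all genes higher. Hcst, which encodes DAP10, the adaptor of NKG2D, had 1550 ± 262 in medullary against 361 ± 71.2 in cortical thymocytes (2.03, SE 0.21, adjusted p = 2.2e-10). Cd160 had 588 ± 102 in medullary against 127 ± 17.6 in cortical thymocytes (1.99, SE 0.25). Cd226, an adhesion receptor, had 194 ± 57.9 in medullary against 34.7 ± 14 in cortical thymocytes (1.84, SE 0.24). In tissue 4 of the 10 were called higher in whole medulla (median 0.86), beside 18.7% of all genes, among them Klrb1b, an inhibitory receptor, at 159 ± 43 in whole medulla against 39.9 ± 21.9 in whole cortex (1.53, SE 0.25) and Hcst at 1.06 (SE 0.17). The NKG2 genes Klrc1, Klrc2 and Klrc3, whose products pair with CD94, did not pass the filter, nor did Klra1, Klra2, Klra7, Klra8, Ncr1 and Cd244a.

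The 18 tested genes of the innate-like T cell programme went both ways. In sorted medullary thymocytes 7 were called higher and 3 lower (median 0.71), beside 7.69% and 6.31% of all genes. Zbtb7b, the factor of the CD4 lineage, had 819 ± 265 in medullary against 47.6 ± 25.9 in cortical thymocytes (3.54, SE 0.30, adjusted p = 1.6e-12). Cxcr6, a chemokine receptor of natural killer T cells, had 1260 ± 578 in medullary against 88.7 ± 22.7 in cortical thymocytes (3.36, SE 0.27, adjusted p = 9.5e-13), and Runx3, the factor of the CD8 and cytotoxic lineage, 1360 ± 180 in medullary against 302 ± 44.7 in cortical thymocytes (2.08, SE 0.20). Zbtb7b and Runx3 also mark conventional CD4 and CD8 thymocytes, so these values are not specific to innate-like cells. Sh2d1a, the adaptor SAP, was lower, at 2200 ± 815 in medullary against 8160 ± 370 in cortical thymocytes (-1.96, SE 0.15). Slamf6, a receptor that signals through SAP, was lower too, at 1210 ± 170 in medullary against 3200 ± 234 in cortical thymocytes (-1.39, SE 0.12). In whole medulla against whole cortex 8 were higher and 4 lower (median 0.55), beside 18.7% and 5.39% of all genes, with Sh2d1a at 851 ± 150 in whole medulla against 5840 ± 420 in whole cortex (-2.76, SE 0.13), Zbtb7b at 2.51 (SE 0.25) and Runx3 at 2.38 (SE 0.17). Between parts of the cortex 0 of the 18 were called in the limma fit. Of all genes 4.61% were called for perimedullary against subcapsular, 1.38% for perimedullary against central and 1.32% for subcapsular against central cortex. In the same order, 9, 6 and 3 of the 18 had an unadjusted limma p below 0.05. The share of all genes with such a p was not counted, so these 3 counts do not set the list apart. The smallest p for perimedullary against subcapsular cortex was that of Fyn, a kinase that acts with SAP, at 3390 ± 38.2 in perimedullary and 1720 ± 131 in subcapsular cortex (0.98, SE 0.17, adjusted p = 1e-04), just short of the size required.

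Of 11 tested genes of the cytokine circuit, 4 were called higher in sorted medullary thymocytes (median 0.19) and 8 in whole medulla (median 2.42), with none lower in either, beside 7.69% and 18.7% of all genes higher. Il2rb, the chain shared by the IL-2 and IL-15 receptors, had 878 ± 202 in medullary against 35.8 ± 27.3 in cortical thymocytes (3.97, SE 0.27, adjusted p = 9.3e-15), and Il7r and Il18r1 were higher by 4.47 (SE 0.19) and 2.82 (SE 0.30). In tissue Il18r1 had 2030 ± 806 in whole medulla against 115 ± 46.8 in whole cortex (3.87, SE 0.26) and 586 ± 40.1 in perimedullary against 94 ± 7.18 in subcapsular cortex (2.35, SE 0.39, adjusted p = 3.8e-05). Il15 had 635 ± 65.4 in whole medulla against 102 ± 36.6 in whole cortex (2.42, SE 0.19, adjusted p = 1.5e-13). Il15ra, which presents IL-15 to other cells, had 1110 ± 105 in whole medulla against 149 ± 112 in whole cortex (2.99, SE 0.27). Il12b, a chain of interleukin 12, had 832 ± 194 in whole medulla against 36.9 ± 20.1 in whole cortex (3.82, SE 0.24). In sorted medullary thymocytes Il15, Il15ra and Il12b were at 17.4 ± 11.3, 27.4 ± 2.45 and 44.1 ± 32.9, and their interaction terms were called higher at 2.32 (SE 0.29), 2.92 (SE 0.41) and 3.80 (SE 0.37). Of the 11 genes, 5 were called higher in the interaction and 3 lower. Those lower were Il7r at -1.92 (SE 0.25), Il2rb at -1.32 (SE 0.36) and Il18 at -1.17 (SE 0.36).

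On the ligand side, 5 genes were tested, of which B2m and Xcr1 were called higher in whole medulla and B2m higher and Cd1d2 lower in sorted medullary thymocytes. Xcr1, the receptor of the Xcl1 product on dendritic cells, had 215 ± 54.7 in whole medulla against 75.2 ± 85.8 in whole cortex (1.61, SE 0.35, adjusted p = 0.00017), with overlap. It was at 47.8 ± 28.3 in sorted medullary and 34.7 ± 34.4 in sorted cortical thymocytes (0.36, SE 0.42, adjusted p = 0.54). Ulbp1, a ligand of NKG2D, was not called between the compartments in sorted cells (-0.89, SE 0.30, adjusted p = 0.017) or in tissue (0.18, SE 0.25, adjusted p = 0.56). H60c, another such ligand, did not pass the filter, and H2-T23 and the Raet1 genes were not analysed here. Of 3 other chemokines tested, Ccl5 and Ccl4 were higher in sorted medullary thymocytes (2.44, SE 0.31, and 1.40, SE 0.22), and Ccl5 had 9280 ± 1090 in whole medulla against 131 ± 70.4 in whole cortex (6.05, SE 0.26, adjusted p = 1e-20). Unlike Xcl1, which had like means in whole medulla and medullary thymocytes, Ccl5 was at 259 ± 90.6 in the sorted medullary cells.

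**Figure D4:**
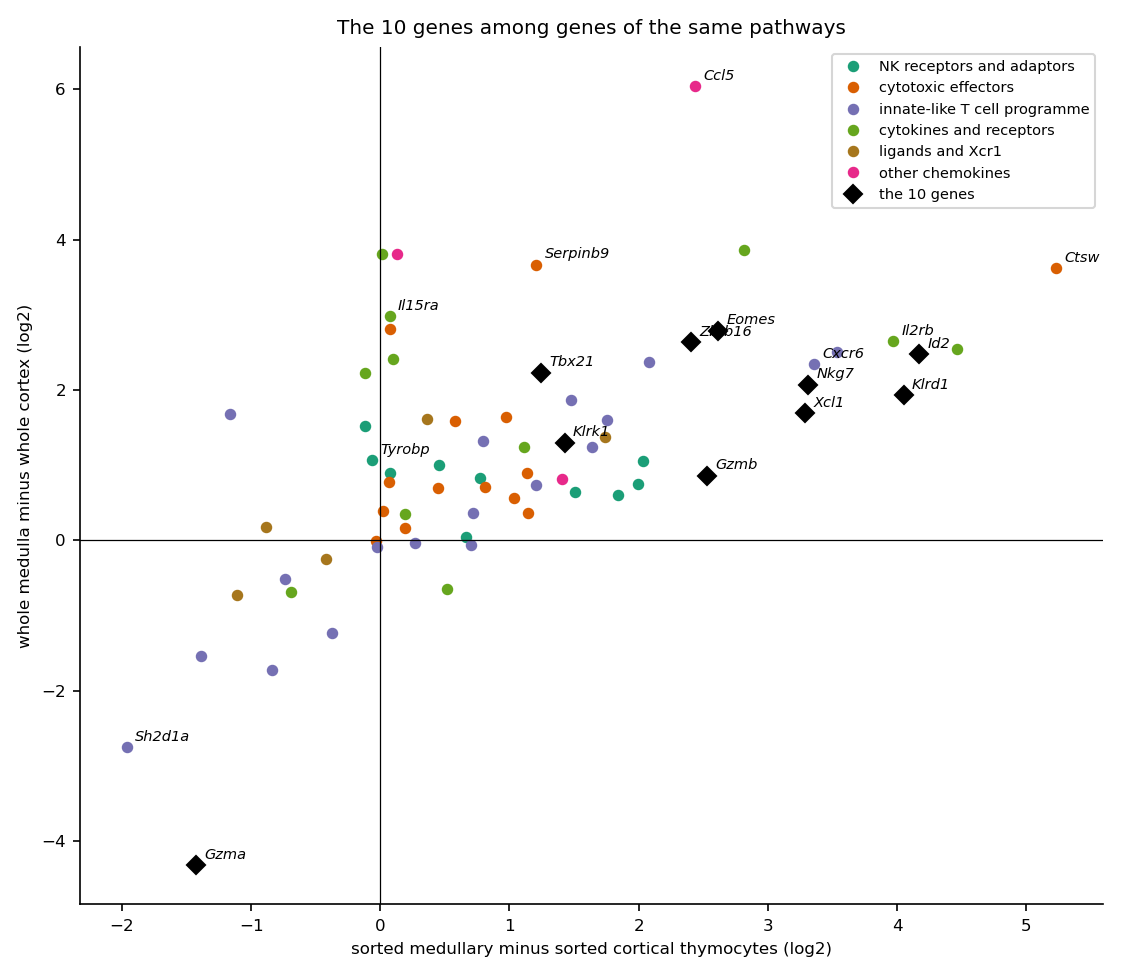
Differences of mean log2 (signal + 26.2) in sorted medullary minus sorted cortical thymocytes (x axis) and in whole medulla minus whole cortex (y axis), 1 point per gene, for the 10 genes (black diamonds) and the lists of related genes (coloured dots). Gzma and Sh2d1a lie at the lower left, Ctsw, Id2 and Il2rb at the right, and Ccl5, Il15ra and Serpinb9 lie high on the tissue axis with smaller values in sorted cells.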

How the data were processed

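Poly(A) RNA of 33 mouse thymus samples had been hybridised to 1 array each. Per the submitters' processing notes, the authors made the deposited signal intensities with Affymetrix Expression Console 1.0 and MAS5. The trimmed mean of the deposited intensities was 492 to 498 on every array, which shows scaling of each array on its own. No between-array normalization, background setting or scan date is given in the sources used here. The array number limits the precision.

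Genes were named from the platform annotation (34945 probe sets with 1 symbol, 932 with several, 9160 with none). The offset added before log2 was 26.2 (25th percentile of each array, then the median of these). Probe sets above their array's median on at least 3 arrays were kept, and the brightest one stood for its gene, which left 13463 genes. A single limma model (version 3.58.1, run in R 4.3.3) held the means of all 7 groups, with a trended moderated spread and 26 residual degrees of freedom. Tests are 2-sided. The scripts were tested on simulated data.

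The 10 genes, the gene lists, the limit for a wide upper tail (99.9th percentile above 42000) and the alternatives were chosen with earlier results of these data known. Every probe set of the 10 genes was fitted, and the brightest gives the values unless another is named. From each list the text names up to 3 called genes of largest change, and some are covered by counts alone. Il15, Sh2d1a and Slamf6 in sorted cells, and Ulbp1 were named after their values were seen. Genes of like course are the nearest by Pearson r over 7 group means. Same-numbered arrays did not all deviate together (every comparison had a pair at r of 0.1 or less), and no pairing was used. The highest pair, of whole medulla and whole cortex, was at 0.257. For subcapsular and central cortex all 3 pairs, at 0.008 to 0.012, correlated best with their own number. This check cannot exclude shared animals.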

Additional observations from a re-analysis of the deposited data

Results flagged for a closer look

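Of 40 groups of 5 or 7 arrays checked over the 10 genes, 1 held an array far from the rest: Klrd1 was at 864 on sorted medullary thymocyte replicate 1, and the gap to the nearest array was 0.854 of the range of the group on the log2 scale (limit 0.71 for 5 arrays). Chance marks about 1 such group in 20. With that array left out the log2 fold change of Klrd1 over sorted cortical thymocytes stayed within 3.97 and 4.23, the range over all arrays left out in turn.

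The medullary minus cortical difference itself differed between tissue and sorted cells for 6 genes by the interaction term of the limma fit. The differences of the differences were -1.70 for Id2, -2.11 for Klrd1, -1.24 for Nkg7, -2.89 for Gzma, -1.67 for Gzmb and -1.60 for Xcl1. For Gzma the negative sign means a larger cortical excess in tissue, and for the other 5 a smaller medullary excess. In this term the extraction kit cannot be told apart from tissue against sorted cells.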

How the results depend on the processing

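No called result changed direction under the alternatives run. Over the 10 genes and 7 comparisons plus the interaction, 867 of 900 values with 1 array left out stayed on their side of the threshold, 21 lost and 12 gained a call, and of 788 values under the other alternatives 769 stayed, 17 lost and 2 gained one. After quantile normalization 1 gene of the 10, Tbx21, was higher in the interaction, 2 were higher in perimedullary than subcapsular cortex and 1 in whole medulla than sorted medullary thymocytes, where 328 of all genes were lower. With the smaller offset of 6.55, 3 of all genes were lower in perimedullary than central cortex. The stricter filter, which tests fewer genes, gave 1368 higher genes in whole medulla against whole cortex, 882 in the interaction, 1233 in whole medulla and 768 in whole cortex against their sorted cells, 2 lower genes in perimedullary against central cortex, and 1 of the 10 genes higher in whole medulla than sorted medullary thymocytes. With plain-suffix probe sets alone, Gzma and Klrk1 had no probe set and were left out. Of the remaining genes 0 were lower in sorted medullary thymocytes or in whole medulla against whole cortex. In whole medulla against its sorted cells 0 of them were lower and 1 was higher. In whole cortex 3 of them were higher than in sorted cortical thymocytes, with Id2 not called at 0.62. The replicate block changed no call of the 10 genes, and gave 271 lower genes in whole medulla and 373 in whole cortex against their sorted cells. Pairs of the same number correlated at -0.08 to 0.257. Without the wide-tailed arrays 8 genes were lower in perimedullary and 94 in subcapsular than central cortex, 44 were lower in whole cortex than its sorted cells, and 0 of the 10 were higher in whole medulla than its sorted cells. With 1 array left out, the 10 genes had 0 to 1 higher in the interaction, 1 to 2 higher in whole medulla than sorted medullary thymocytes, and 0 to 1 lower in subcapsular than central cortex. Over all genes 78 to 127 were higher in subcapsular and 1 to 5 lower in perimedullary than central cortex. Eomes in perimedullary cortex also lost its calls with the smaller offset, the mean of its probe sets and quantile normalization. Shares of all genes called are not given for each alternative, so counts of the 10 genes under them are a description. The causes were not tested. Signals near the array background limit Zbtb16, Eomes, Xcl1 and Klrk1 in cortical groups. They also limit Gzmb in sorted cortical thymocytes and perimedullary cortex, and Tbx21 in sorted cortical thymocytes. Near it too were Tbx21 in whole cortex, above the array median on 1 of 7 arrays, and Klrd1 in sorted cortical thymocytes, on 1 of 5.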
